A study of Mus musculus with 40 samples.

Results

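The genes described here are 42 protein-coding genes of ribosome biogenesis and the nucleolus, out of 23480 genes in each of the 2 deposited expression tables, and they were chosen by gene symbol. All 42 symbols were listed in both tables and none was at the smallest value in every library. The minimum level for testing was passed by 41 of them in both tables; it lay at 121 scaled reads (reads divided by the size factors of the authors) in the Slpi table and at 139 in the Mgp table. Npm3, a histone-binding nucleolar protein, was below it in both. The row of Rn45s, the 45S ribosomal RNA precursor, was set beside them.

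RNA was sequenced from 4T1 cells, a mouse mammary carcinoma line, carrying 1 of 10 short hairpin RNAs (shRNAs), which are stem-loop transcripts that cells process into small RNAs that lower matching mRNAs. The series asked how far hairpins from the TRC collection and hairpins chosen with the shERWOOD algorithm change genes other than their targets. In the Mgp table, hairpin 88943 was set against Mgp1, Mgp1U1, Mgp1U3 and Mgp2, and in the Slpi table hairpin 66708 was set against Slpi1U1, Slpi1U2, Slpi2 and Slpi4. The virus was given at a multiplicity of infection of 0.3, and infected cells were then enriched over 10 days on average. Puromycin (1 µg/ml) was the drug for 88943 and 66708, and hygromycin (500 µg/ml) for the other 8 lines. That 88943 and 66708 are the TRC hairpins was inferred from their catalogue-style numbers and their drug, so that source and selection drug cannot be told apart. The labels list 4 samples per line, named by a letter (A or B) and a number, while the tables hold 2 columns per line, each used here as 1 library. Whether letters or numbers mark separate cultures is not stated. The p-values below thus reflect the spread between libraries, which may be technical. No untransduced line was among the samples analysed here.

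Read totals were 12.1 M to 23.3 M per library in the Mgp table and 12.2 M to 28.5 M in the Slpi table. The targeted gene Mgp had 15.4 and 16.2 CPM (reads scaled to the same library total) in 88943 and 1.06 to 8.42 CPM in the Mgp-directed shERWOOD libraries. Slpi had 145 and 156 CPM in 66708 and 46.9 to 61.9 CPM in the Slpi-directed shERWOOD libraries. In the lines not directed at it, Mgp had 102 and 108 CPM in 66708 and 14.8 to 31.2 CPM in the Slpi-directed shERWOOD libraries. Slpi had 135 and 145 CPM in 88943 and 448 to 613 CPM in the Mgp-directed shERWOOD libraries. How far each hairpin lowered its target was not tested. All 8 epithelial markers looked up in the data were above 1 CPM on average in both tables, and of the 5 leukocyte, 6 fibroblast and 4 endothelial markers the only ones above it were 1 leukocyte and 1 fibroblast marker. The epithelial marker sum was 2614 to 2622 CPM in 88943 and 1543 to 1731 CPM in the Mgp-directed shERWOOD libraries. It was 2272 to 2320 CPM in 66708 and 2018 to 2165 CPM in the Slpi-directed shERWOOD libraries. The epithelial markers did not move together in 66708. Krt7 was lower, at 182 and 184 CPM in 66708 and 258 to 308 CPM in the Slpi-directed shERWOOD libraries. Krt19 was also lower, at 49.6 and 43.2 CPM against 66.5 to 89.2 CPM. Both 66708 libraries were above all of those for Epcam, Krt8, Krt18, Cdh1 and Cldn7, and Cldn4 overlapped. The fibroblast marker sum was 55.5 to 58.4 CPM in 88943 and 25.1 to 34.5 CPM in the Mgp-directed shERWOOD libraries. Nearly all of it was Pdgfra, at 57.3 and 54.8 CPM in 88943 and 24.6 to 34.0 CPM in those shERWOOD libraries. The other fibroblast markers stayed below 1 CPM in every library. In the Slpi table the sum was 42.0 to 42.1 CPM in 66708, within the 40 to 53.6 CPM of the shERWOOD libraries. The leukocyte sum stayed at or below 8.56 CPM and the endothelial sum below 1 CPM in every library, and the macrophage marker Emr1 and the endothelial marker Kdr had no read in the Mgp table. The part of these marker differences in the results below was not tested.

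Ribosomes are built in the nucleolus. RNA polymerase I transcribes a long ribosomal RNA precursor, box C/D and box H/ACA small nucleolar ribonucleoproteins (snoRNPs) methylate and pseudouridylate it, and a large set of assembly factors, helicases and nucleases folds, cuts and exports the small and large subunits. MYC, a transcription factor of growing cells, is known to activate many of these genes, often through the E-box CACGTG, and the pathway is usually active in carcinoma cells. The 42 genes comprise Myc, 3 RNA polymerase I subunits, 4 box C/D and 4 box H/ACA snoRNP proteins, 6 further nucleolar proteins, 12 small subunit factors and 12 large subunit factors.

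In the 88943 line nearly the whole set was lower than in the lines with Mgp-directed shERWOOD hairpins. Of the 41 genes tested, 39 fell and Myc and Polr1c were not called, at an adjusted p under 0.05 (limma, Benjamini-Hochberg adjustment over all genes tested). No member was called higher in that fit or by limma's voom with the size factors of the authors, and none was higher at an unadjusted p under 0.05, since Polr1c alone had a positive difference. Polr1c was called higher under 2 alternatives, given with its values below. Across the 9174 genes tested in that table, 42.0% were called lower and 28.7% higher. Both 88943 libraries lay below all 8 shERWOOD libraries for the same count of 39 genes, where 36.2% of all genes did so and 24.3% lay above. The median fold between line means was 1.77-fold lower for the 41 genes and 1.05-fold lower for all genes, and 34 of the 41 were at least 1.5-fold lower, against 7.99% of all genes. In these bulk libraries, less RNA per cell and fewer cells of a type cannot be told apart.

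Differences are given on the deposited scale, which is log2-like but compressed for weakly expressed genes, so that a doubling from 1000 to 2000 scaled reads is 0.75 units in the Mgp table and 0.77 units in the Slpi table. Folds are ratios of mean scaled reads. On the deposited scale the median difference in 88943 was -0.60 for the 41 genes and -0.04 for all genes tested. Scaling to read totals moved the median of all genes up by 0.14 in 88943 on the log2 scale, while in 66708 it dropped by 0.09. Of the genes called in 88943, 40.6% were higher with the size factors, 50.3% with library medians set equal and 59.8% with voom on recovered reads scaled to read totals. With the last of these, 38 of the 41 members were called lower, against 29% of all genes.

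**Figure D1:**
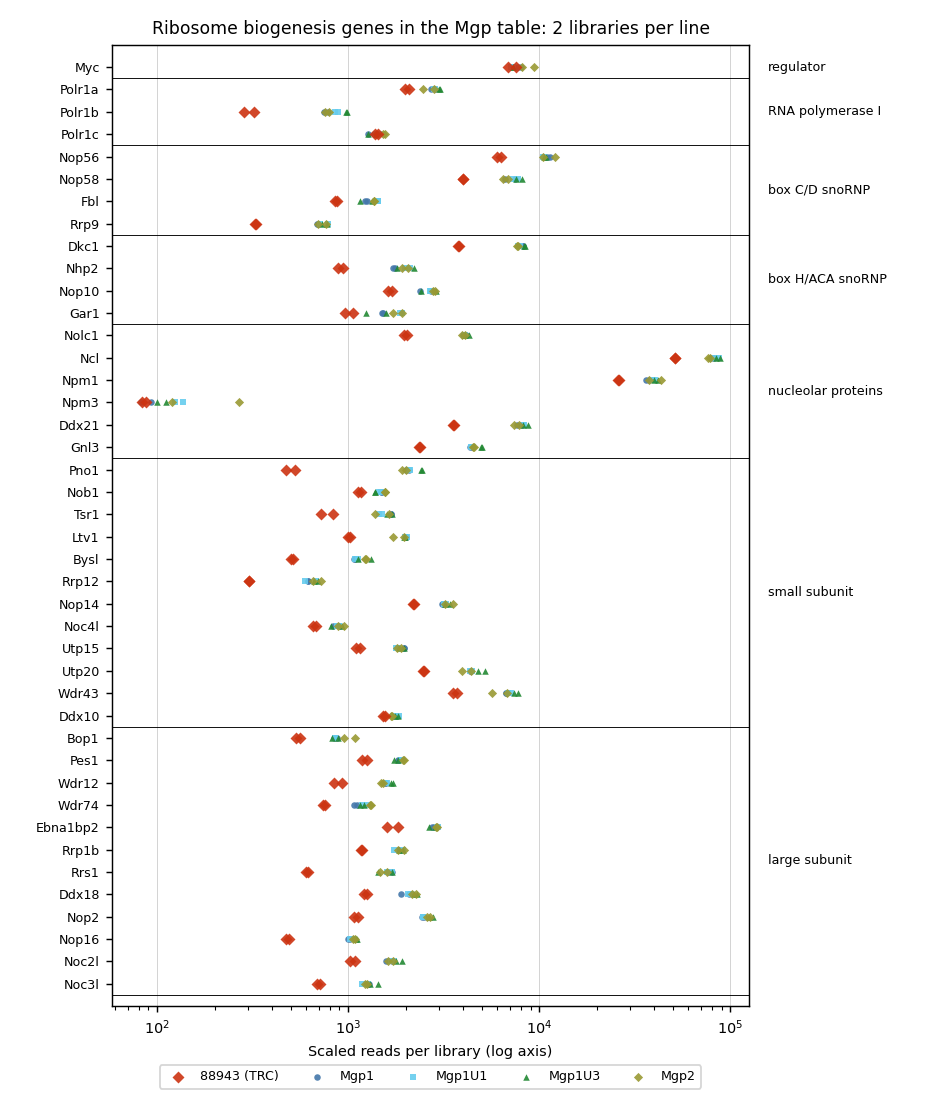
Scaled reads (log axis) of the 42 genes in each library of the Mgp table, grouped by role, with 88943 as red diamonds and the 4 shERWOOD lines in other colours. The 88943 points lie left of all others for 39 of the 41 genes tested, Myc and Polr1c being the exceptions, and Npm3 was not tested.

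Among the small subunit factors, all 12 were lower in 88943 than in the lines with Mgp-directed hairpins. The folds lay between 1.14-fold lower for the RNA helicase Ddx10 and 4.26-fold lower for Pno1. Pno1 is an RNA-binding protein that in yeast assists the nuclease Nob1 in the last cut of small subunit RNA, and it lies on chromosome 11 of GRCm38 at 17203198 to 17211568, minus strand. Pno1 had 475 and 525 scaled reads in the 88943 libraries, against 2001 and 2083 in Mgp1, 2073 and 2105 in Mgp1U1, 2396 and 2445 in Mgp1U3, and 1915 and 2010 in Mgp2. No shERWOOD library came near the 88943 pair. The difference was -1.44 with a standard error of 0.03 and an adjusted p of 1.53e-14. Its partner Nob1 fell much less, with 1128 and 1165 scaled reads in 88943 and 1373 to 1563 in the shERWOOD libraries, a 1.29-fold lower mean. Bysl (2.27-fold lower), Rrp12 (2.17-fold lower) and Tsr1 (2.04-fold lower), all of which in yeast act on late small subunit precursors, were the other members of this role that were at least 2-fold lower. Tsr1 shares 32.3% of its exon bases with Srr on the opposite strand. The strand setting of the counting is not given in the sources used here. Ltv1, an export factor in yeast, and Wdr43 and Utp20 of the small subunit processome were 1.94-fold, 1.89-fold and 1.81-fold lower. Utp15, Nop14 and Noc4l, of the same processome, were 1.66-fold, 1.48-fold and 1.34-fold lower.

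Ddx10 was the member with the smallest difference that passed the test. It had 1550 and 1524 scaled reads in 88943 and 1673 to 1835 in the shERWOOD libraries. It lost its call under 3 of the 24 alternatives.

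All 12 large subunit factors were lower in 88943 than in the Mgp-directed shERWOOD lines, by 1.53-fold to 2.63-fold. Rrs1, which in yeast brings the 5S ribosomal RNA into the large subunit together with Rpf2, is a gene on chromosome 1 at 9545408 to 9547455, plus strand. Rrs1 had 599 and 616 scaled reads in 88943, against a lowest value of 1428, a median of 1611 and a highest value of 1699 in the shERWOOD libraries. The groups were far apart, and the difference was -0.95 with a standard error of 0.04. Nop2, a cytosine methyltransferase of large subunit RNA (chromosome 6, 125131909 to 125144753, plus strand), had 1074 and 1129 scaled reads in 88943. The 8 shERWOOD libraries ran between 2439 and 2767 for Nop2 with a median of 2542, and the difference was -0.94 with a standard error of 0.03. Nop16 followed at 2.19-fold lower. Noc3l and Noc2l, which in yeast escort large subunit precursors, were 1.83-fold and 1.62-fold lower, and the helicase Ddx18 was 1.73-fold lower. Ebna1bp2, Wdr74 and Rrp1b were 1.66-fold, 1.61-fold and 1.60-fold lower. Bop1, Pes1 and Wdr12, which together form the PeBoW complex that processes large subunit RNA, were 1.64-fold, 1.53-fold and 1.79-fold lower in 88943.

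All 5 tested nucleolar proteins were lower in 88943. Ddx21, an RNA helicase of the nucleolus (chromosome 10, 62580251 to 62602281, minus strand), had 3549 and 3561 scaled reads in 88943, against a range of 7359 to 8727 with a median of 8172 in the shERWOOD libraries. Its difference was -1.07 with a standard error of 0.04, next in size after that of Pno1. Nolc1, which accompanies snoRNPs in the nucleolus (chromosome 19, 46075863 to 46085530, plus strand), had 2034 and 1951 scaled reads in 88943. The shERWOOD libraries gave 3933 to 4296 for Nolc1 with a median of 4089, and the difference was -0.88 with a standard error of 0.03. Gnl3, or nucleostemin, was 1.94-fold lower. The very abundant nucleolin (Ncl) and nucleophosmin (Npm1) were 1.60-fold and 1.52-fold lower, with both 88943 libraries below all others. Of the members, 7 have transcripts of other annotated genes with at least 95% identity over 200 bases or more. The other genes number 6 for Wdr12, 4 for Npm1, 3 for Nop56, 2 each for Pes1 and Ddx18, and 1 each for Ddx21 and Npm3. How the counting split such reads is not given in the sources used here.

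Both classes of snoRNP protein fell in 88943, 4 of 4 in each. Dkc1, the pseudouridine synthase of box H/ACA snoRNPs (chromosome X, 75095854 to 75109777, plus strand), had 3740 and 3809 scaled reads in 88943, against 7689 to 8415 with a median of 8066 in the shERWOOD libraries. The difference was -0.99 with a standard error of 0.03. The other H/ACA core proteins were 2.14-fold (Nhp2), 1.63-fold (Gar1) and 1.61-fold (Nop10) lower. Of the box C/D proteins, Rrp9, which belongs to the U3 snoRNP, was 2.23-fold lower, the scaffold proteins Nop58 and Nop56 were 1.82-fold and 1.77-fold lower, and the methyltransferase fibrillarin (Fbl) was 1.52-fold lower.

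The RNA polymerase I subunits did not move together. Polr1b, which with Polr1a forms the catalytic centre (chromosome 2, 129100995 to 129126594, plus strand), had 323 and 285 scaled reads in 88943. In the shERWOOD libraries it had between 750.0 and 991 with a median of 821. The fold of 2.79 lower was the second largest of the set after Pno1, while its difference on the compressed scale was -0.83 with a standard error of 0.03. Polr1a was 1.38-fold lower. Polr1c, which is shared with RNA polymerase III, had 1440 and 1383 scaled reads in 88943 and 1266 to 1556 in the shERWOOD libraries, with overlapping groups and a difference of 0.01 (adjusted p of 0.842). It was called higher under 2 of the 24 alternatives, quantile normalization and voom scaled to read totals.

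Myc mRNA itself was not called in 88943. It had 7599 and 6855 scaled reads in 88943, against a lowest value of 7142, a median of 7512 and a highest value of 9374 in the shERWOOD libraries, and the groups overlapped. The difference was -0.10 with a standard error of 0.05 and an adjusted p of 0.0744. It was called lower under 5 of the 24 alternatives and took the other sign, at 0.03, with read totals and, at 0.08, with quantile normalization.

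**Figure D2:**
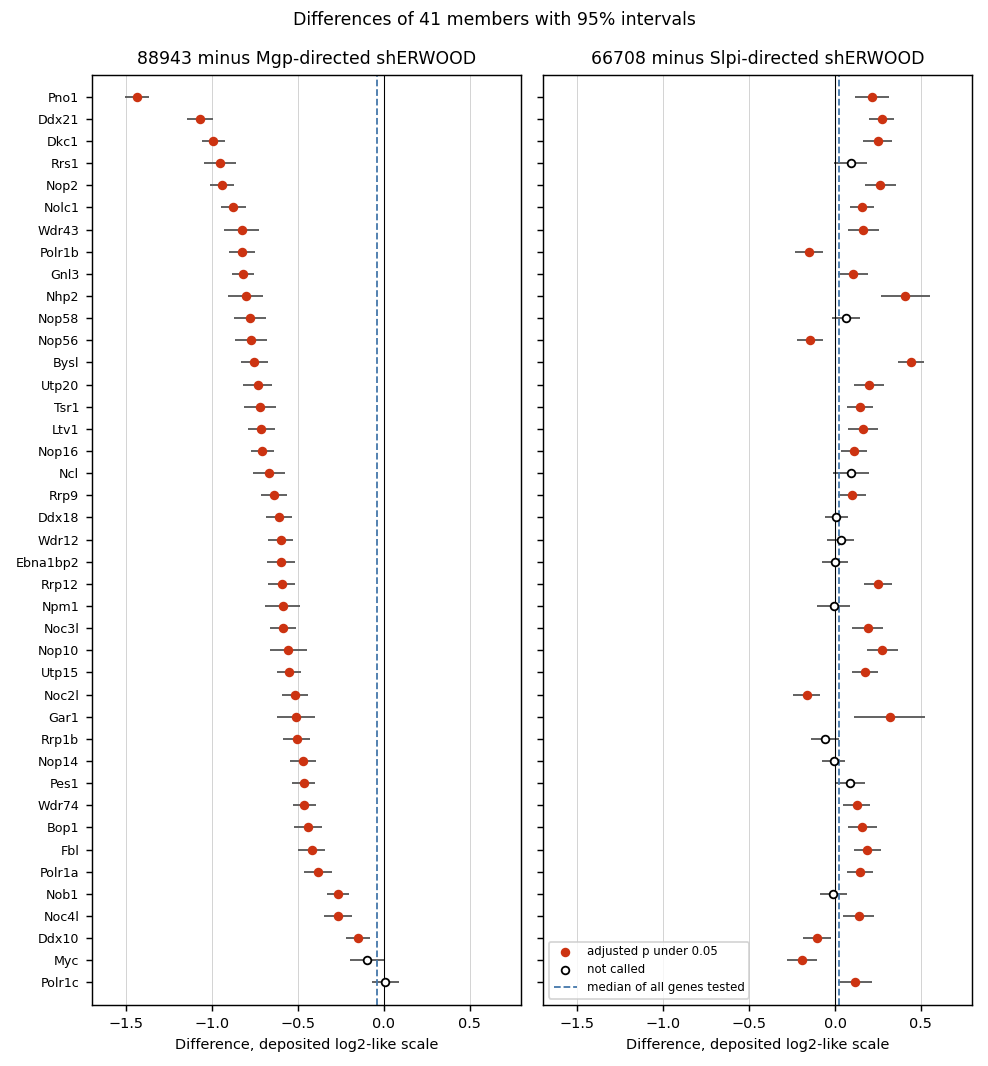
Difference of each of the 41 tested genes from the mean of the 4 shERWOOD lines on the deposited log2-like scale, with 95% intervals, for 88943 (left) and 66708 (right), in the order of the 88943 difference. Red points were called, open points were not, and the dashed line is the median of all genes tested (-0.04 and 0.02). The points of 88943 reach down to -1.44, and those of 66708 lie between -0.19 and 0.44.

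Of the 42 genes, 36 had a promoter entry from 250 bases before to 50 bases after the start of transcription in the RefSeq table for GRCm38.p6. The first listed start of each gene was used. The E-box CACGTG, which reads the same on both strands, was present in 7 of these 36 promoters (19.4%), against 7.24% of all 27025 promoters in the table and 11.0% of those of the genes tested in either table. The windows are shown because 6 of the 7 matches lay in the 50 bases from the start onwards and 1 in the 250 bases before it. In those 50 bases, counting also matches that overlap the start, the motif was found in 16.7% of the members' promoters. The shares there were 1.38% for all promoters and 2.32% for those of tested genes. In the 250 bases before the start it was found in 2.78% of the members' promoters, against 6.05% and 9.04%. The division at the start was chosen after the matches were seen. Each window below is 30 bases long on the strand of the gene, with the motif in capitals.
Nop2: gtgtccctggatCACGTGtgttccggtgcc
Ltv1: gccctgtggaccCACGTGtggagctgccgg
Utp20: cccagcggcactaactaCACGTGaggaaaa
Pes1: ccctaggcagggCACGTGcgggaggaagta
Pno1: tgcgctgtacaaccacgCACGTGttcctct
Tsr1: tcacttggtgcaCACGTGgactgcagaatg
Wdr43: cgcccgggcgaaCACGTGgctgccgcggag
The Nop2 window is at chr6:125131811-125131840 on the plus strand, the Ltv1 window at chr10:13193092-13193121 on the minus strand and the Utp20 window at chr10:88826765-88826794 on the minus strand. Those on chromosome 11 are chr11:3963965-3963994 on the plus strand for Pes1, chr11:17211540-17211569 on the minus strand for Pno1 and chr11:74898092-74898121 on the plus strand for Tsr1. The Wdr43 window is at chr17:71616220-71616249 on the plus strand. All 7 genes with the motif fell in 88943, by 1.53-fold (Pes1) to 4.26-fold (Pno1), and so did every tested gene with an entry and no match apart from Polr1c. A match is a description of the sequence and shows no binding.

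In the 66708 line more of these genes rose than fell, but by small amounts. Of the 41 genes tested, 25 rose, 5 fell and 11 were not called, where 32.1% of all 9489 genes tested in the Slpi table were called higher and 23.6% lower. Both 66708 libraries lay above all 8 shERWOOD libraries for 22 of the genes and below them for 3, against 28.3% and 20.4% of all genes. In CPM these counts were 10 and 6, against 18% and 30.6% of all genes. The median fold was 1.13 for the 41 genes and 1.02 for all genes, with median differences of 0.13 and 0.02. With voom on recovered reads scaled to read totals, which changes the test as well as the scaling, 15 members were called higher and 8 lower, against 21.7% and 35.2% of all genes. With each line reduced to its mean the counts were 15 and 1, and without 66708 replicate 1 they were 18 and 3. Of all genes called in 66708, 57.6% were higher with the size factors, 48.3% with library medians set equal and 38.2% with voom scaled to read totals.

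The largest differences in 66708 were in small subunit and H/ACA genes. Bysl (chromosome 17, 47599331 to 47611492, minus strand) had 1000.1 and 923 scaled reads in 66708, against a lowest value of 595, a median of 604 and a highest value of 630 in the shERWOOD libraries. The 66708 libraries stood well above the narrow range of the others, and the rise was 1.58-fold, a difference of 0.44 with a standard error of 0.04. Of the 12 small subunit factors, 9 rose in 66708 and Ddx10 fell to 0.912 of the shERWOOD mean. Nob1 and Nop14 were not called. Pno1 had 1419 and 1606 scaled reads in 66708 and 1138 to 1431 in the shERWOOD libraries, which overlap, and was called 1.22-fold higher.

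All 4 H/ACA proteins rose in 66708. Nhp2 (chromosome 11, 51619735 to 51623714, plus strand) had 1719 and 1530.5 scaled reads in 66708, against 857 to 1243 with a median of 1141 in the shERWOOD libraries, a 1.45-fold rise and a difference of 0.41 with a standard error of 0.07. Nop10 (chromosome 2, 112261926 to 112263269, plus strand) had 2804 and 2654 scaled reads in 66708, against 1942 to 2332 with a median of 2238 in the shERWOOD libraries. It rose 1.25-fold, with a difference of 0.28 and a standard error of 0.04. Gar1 (chromosome 3, 129824912 to 129831396, minus strand) was uneven within the line, at 1830.2 and 1331 scaled reads in 66708, against 845 to 1415 with a median of 1212 in the shERWOOD libraries. Its groups overlapped, and its rise of 1.34-fold (difference 0.32, standard error 0.10) was no longer called without 66708 replicate 1, where the difference was 0.14 with an adjusted p of 0.352, the highest over the 24 alternatives. Dkc1 rose 1.20-fold.

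Among the nucleolar proteins, Ddx21 had 5591 and 5606 scaled reads in 66708, against 4411 to 4687 with a median of 4587 in the shERWOOD libraries. The rise was 1.23-fold, with a difference of 0.27 and a standard error of 0.03. Nolc1 and Gnl3 were called higher by 1.13-fold and 1.09-fold, and Ncl and Npm1 were not called. Among the large subunit factors, 5 rose, 6 were not called and Noc2l fell. Nop2 had 2088 and 1927 scaled reads in 66708, against 1464 to 1810.5 with a median of 1545 in the shERWOOD libraries, a rise of 1.25-fold with a difference of 0.26 and a standard error of 0.04. Rrs1 and the PeBoW members Pes1 and Wdr12 were not called, and Bop1 rose 1.19-fold.

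Myc was lower in 66708, with 5979 and 5640.4 scaled reads, against a lowest value of 6251, a median of 6624 and a highest value of 7265 in the shERWOOD libraries. The groups did not overlap. The mean was 0.866 of that of the shERWOOD lines, a difference of -0.19 with a standard error of 0.04 and an adjusted p of 0.00116, and the call was lost when each line was reduced to its mean (adjusted p of 0.0581, the highest over the 24 alternatives). Polr1b and the box C/D protein Nop56 also fell in 66708, to 0.834 and 0.898 of the shERWOOD mean, while Polr1a rose 1.13-fold and Fbl 1.19-fold. Polr1c had 1532 and 1384 scaled reads in 66708 and 1055 to 1462 in the shERWOOD libraries, and its call of 1.11-fold higher was lost in 17 of the 24 alternatives.

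**Figure D3:**
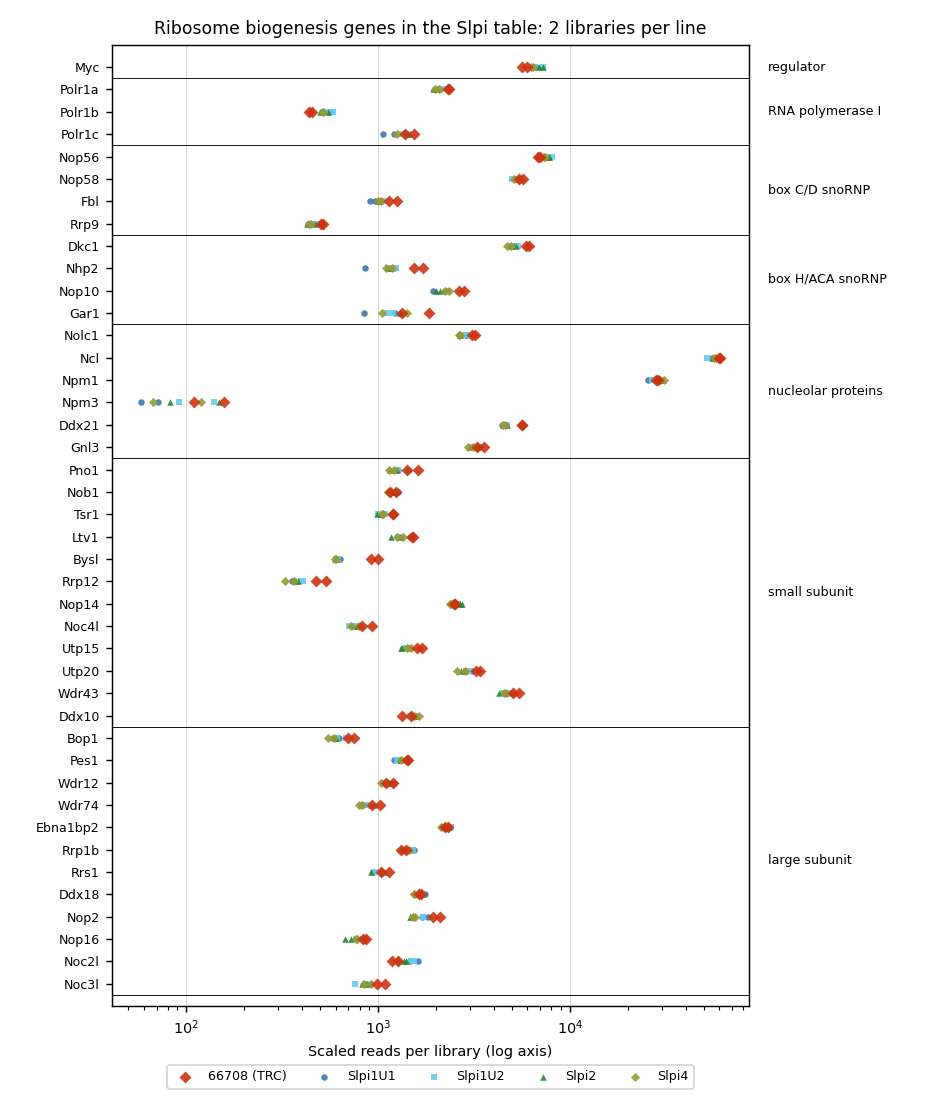
Scaled reads (log axis) of the 42 genes in each library of the Slpi table, grouped by role, with 66708 as red diamonds and the 4 shERWOOD lines in other colours. The 66708 points are to the right of all others for 22 of the genes tested, Bysl among them, and to the left for 3, Myc among them.

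Rn45s was not called in 88943 and rose in 66708. Reads on it can come from the precursor and from mature ribosomal RNA, and the row does not separate them. In 88943, Rn45s had 251728 and 225767 scaled reads, against 185443 and 170228 in Mgp1, 293484 and 305087 in Mgp1U1, 272937 and 251200.3 in Mgp1U3, and 429126 and 229368 in Mgp2. The 88943 libraries lay within the range of the others, and the difference was -0.11 with a standard error of 0.14 and an adjusted p of 0.505. Mgp2 replicate 1 stood apart, and leaving it out gave a difference of 0.004, while leaving out Mgp2 replicate 2 gave -0.22 and a call. The adjusted p ran from 0.00149 to 0.951 over the alternatives. The share of reads on Rn45s was 1.54% and 1.39% in 88943 and 0.961% to 2.39% in the shERWOOD libraries. Without Mgp2 replicate 1, the count of members called lower in 88943 was again 39.

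In 66708, Rn45s had 484906 and 401809.5 scaled reads in 66708, against a lowest value of 205746, a median of 269308 and a highest value of 309254 in the Slpi-directed shERWOOD libraries, with no overlap. The rise was 1.68-fold, with a difference of 0.76, a standard error of 0.13 and an adjusted p of 0.000213. Leaving out any 1 library gave differences between 0.62 and 0.89, all called. Quantile normalization gives no value here, because Rn45s is the most abundant row.

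**Figure D4:**
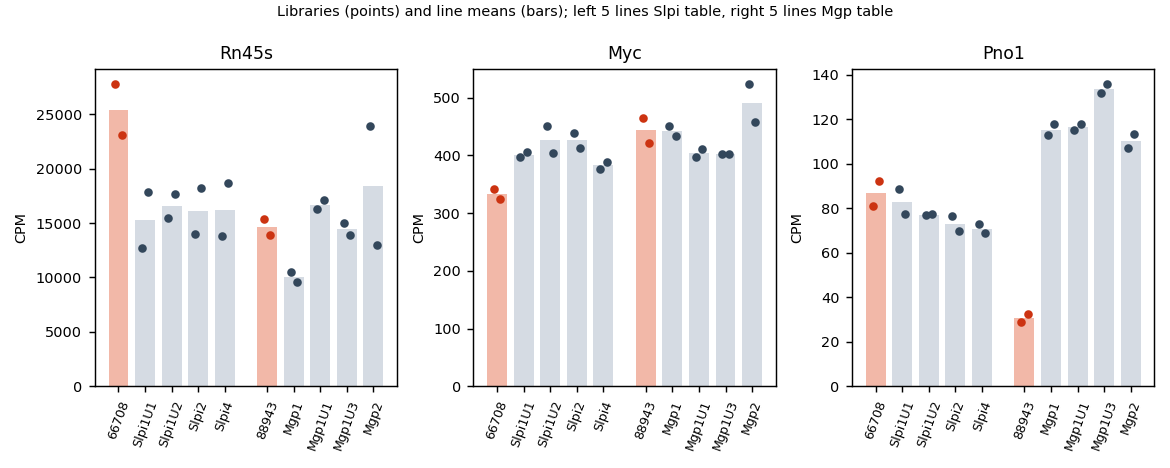
CPM of Rn45s, Myc and Pno1 in the 2 libraries of each line (points) and their mean (bars), with the 5 lines of the Slpi table on the left and those of the Mgp table on the right of each panel, and the puromycin-selected lines 66708 and 88943 in red. By line means, Rn45s is highest in 66708 (25421 CPM), and Pno1 is lowest in 88943 (30.7 CPM). For Rn45s, Mgp2 replicate 1 (23940 CPM) lies above 66708 replicate 2 (23104 CPM).

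Most other genes of the pathway, taken from lists beyond the 42, also fell in 88943, where 42.0% of all genes were called lower and 28.7% higher. Of the other small subunit factors, 38 of 41 fell in 88943 and 3 were not called, with Heatr1 (2.03-fold lower) and Wdr75 (2.01-fold lower), which in human cells are also needed for precursor transcription, at the head. Of the other large subunit factors, 43 of 46 fell, led by Rpf2 (2.14-fold lower) and Mki67ip (2.04-fold lower), and Gltscr2 rose 1.32-fold. All 8 snoRNP assembly factors fell, among them Nhp2l1, a box C/D core protein, at 1.70-fold lower. Of the exosome and RNA trimming genes, 12 of 15 fell, with the exonuclease Dis3 at 1.75-fold lower.

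Of the other RNA polymerase I genes, 9 of 12 fell in 88943, with the initiation factor Rrn3 at 2.13-fold lower, and Taf1b and Znrd1 rose by 1.19-fold and 1.18-fold. RNA polymerase III genes fell in 14 of 18 cases, with Polr3d at 1.76-fold lower, while Maf1, a repressor of that polymerase, rose 1.51-fold. For comparison, 6 of 7 RNA polymerase II genes fell, led by Polr2d at 1.45-fold lower. The median differences in 88943 were -0.45 and -0.50 for the small and large subunit lists, -0.39 for snoRNP assembly, -0.33 for the exosome list, -0.25 for the RNA polymerase I list, -0.22 for the RNA polymerase III list and -0.25 for the RNA polymerase II list, beside -0.04 for all genes. Of the 6 tested genes of the MYC network, 4 fell in 88943 and Mxi1, a protein that competes with MYC for its partner MAX, rose 1.66-fold, a share of genes too few to set apart from the 42.0% lower among all genes.

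In 66708 the same lists were mixed, and several of their shares lay near those of all genes, 32.1% higher and 23.6% lower. Of the small subunit list 17 of 41 genes rose and 3 fell, with Pwp2 at 1.40-fold higher. Of the large subunit list 21 of 46 rose and 3 fell, with Nip7 at 1.37-fold higher. For snoRNP assembly 3 of 8 rose and 5 were not called, for the exosome list 6 of 15 rose and 5 fell, and for RNA polymerase I 4 of 11 rose and 2 fell, with Rrn3 1.26-fold higher. The RNA polymerase III list had 7 of 19 higher and 4 lower, and the RNA polymerase II list 3 of 7 higher and 4 not called. Median differences in 66708 ran from -0.03 for the MYC network to 0.08 for the large subunit list. Within the MYC network of 6 genes, 2 rose and 2 fell, Mxi1 being 1.84-fold lower and Max 1.42-fold higher. These lists were gathered with earlier results of the same data known.

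**Figure D5:**
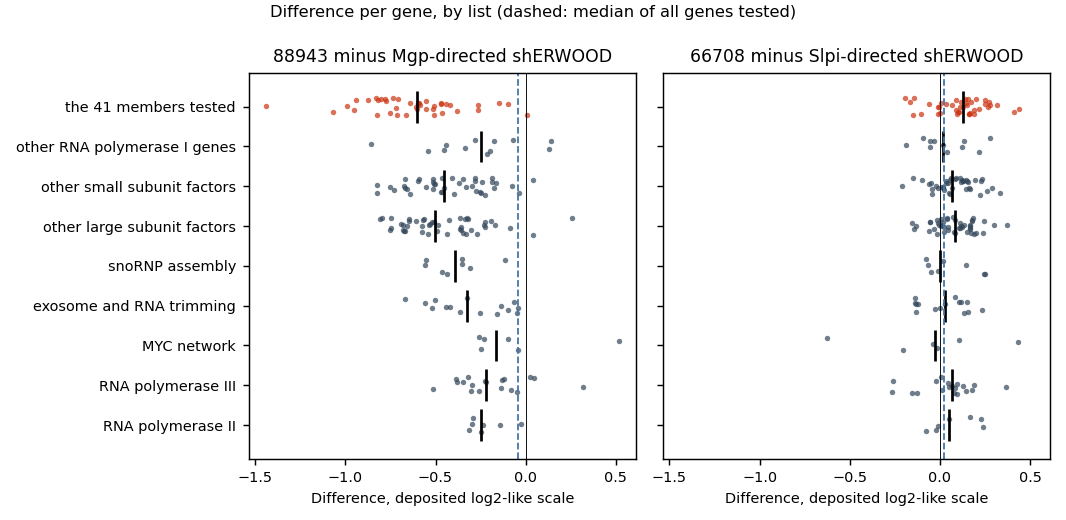
Difference of each gene from the mean of the 4 shERWOOD lines on the deposited log2-like scale, for the 41 members (red) and 8 other lists (dark), in 88943 (left) and 66708 (right). Points are genes, with vertical scatter for legibility only, black bars are list medians and the dashed line is the median of all genes tested. In 88943 every list median lies left of that line, down to -0.60 for the members.

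The Mgp-directed shERWOOD lines also differed among themselves. A moderated F test over the 4 lines called 12 of the 41 members, where 29.4% of all genes were called, and 2 of the 41 among the Slpi-directed lines, where 7.55% were called. Neither count set the members apart from all genes. The members with the smallest adjusted p in the Mgp table were Pno1 (0.00347), Polr1b (0.00378) and Gar1 (0.00480). Pno1 averaged 2421 scaled reads in Mgp1U3 and 1963 in Mgp2, a ratio of 1.23, and Polr1b averaged 980 in Mgp1U3 and 775 in Mgp2, a ratio of 1.26. Gar1 went the other way, with 1412 in Mgp1U3 and 1812 in Mgp2. The pair Mgp1U3 and Mgp2 had 15 members called, where 25.1% of all genes were called. The other pairs had fewer members called, here with the share of all genes. Between Mgp1 and Mgp1U1 it was 1 member (8.26%), between Mgp1 and Mgp1U3 4 (7.24%), and between Mgp1 and Mgp2 3 (12.0%). Between Mgp1U1 and Mgp2 it was 2 (7.68%). For Mgp1U1 minus Mgp1U3, 1 member was called higher and 3 lower (7.66%). The 2 libraries of Mgp2 also differed more from each other than those of any other line, with a chi-square of 12.07 per degree of freedom against 1.57 to 5.99 elsewhere.

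Among the Slpi-directed lines, Noc2l (adjusted p of 0.0251) averaged 1541 scaled reads in Slpi1U1 and 1268 in Slpi4, a ratio of 1.21. Polr1c (0.0411) averaged 1136 in Slpi1U1 and 1440 in Slpi2. Nop14 came next with 0.0508 and was not called. In 66708 Nop14 had 2489 and 2514 scaled reads, within the range of 2356 to 2746 of the shERWOOD libraries, and Noc2l had 1178 and 1270.2, against 1261 to 1608 with a median of 1434. Noc2l shares 20.9% of its exon bases with Samd11 on the opposite strand, and the strand setting of the counting is not given in the sources used here.

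Set side by side in CPM, with no test because the tables were normalized separately, 88943 had the lowest mean of all 10 lines for 36 of the 42 genes, and both of its libraries were below the other 18 for 31 of them. Over the 9264 genes of at least 8 CPM on average, which take in 41 of the 42, 88943 had the lowest mean for 19.6% and both libraries below the other 18 for 12.3%. The exceptions were Myc, Nob1 and Ddx10, lowest in 66708, Polr1a, lowest in Slpi2, and Polr1c and Npm3, lowest in Slpi1U1. The 42 genes together took 0.874% of reads in 88943 and 1.29% to 1.34% in the Mgp-directed shERWOOD lines. They took 1.00% in 66708 and 0.993% to 1.01% in the Slpi-directed shERWOOD lines. The 2 sets of shERWOOD lines thus also stood apart, with the mean in the Mgp-directed lines above that in the Slpi-directed lines for 41 of 42 genes and a median ratio of 1.30, against 0.963 over those 9264 genes. Bysl had the highest ratio, 1.75, at 60.9 to 69.1 CPM in the Mgp-directed and 36.1 to 38.0 CPM in the Slpi-directed lines. Bysl was at 31.3 CPM in 88943 and 55.1 CPM in 66708. The folds given for 88943 were thus taken against lines that themselves stood above the Slpi-directed lines for 41 of 42 genes. Ddx10 was at 94.3 CPM in 88943, within the 91.6 to 95.7 CPM of the Slpi-directed lines. Nob1 was at 70.4 CPM in 88943, within their 68.9 to 77.0 CPM.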

How the data were processed

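The deposited values are the authors' variance-stabilized expression on a log2-like scale, and the submitters' processing notes name Bowtie2, HTSeq, DESeq and mm10, without versions. RNA was amplified from 100 ng and sequenced as 76 bp reads, per the labels' protocols. The transform was inverted, which gave whole reads for 100% of values (tolerance 0.001), and CPM and scaled reads were taken from these. The 20 columns (2 per line) could not be tied to single ones of the 40 labelled samples, and each was used as 1 library of its line. Per table, limma 3.58.1 (R 4.3.3) was fitted with an intensity trend on the deposited values of all 5 lines. Each TRC line was set against the mean of the 4 shERWOOD lines, with two-sided tests, Benjamini-Hochberg adjustment over all genes at least 1 unit above the smallest value on average, and a call at an adjusted p under 0.05. An F test compared the 4 shERWOOD lines. The procedure was tested on simulated data. Values of both TRC libraries, with the lowest, median and highest of the 8 shERWOOD libraries or each of them, are given for Rn45s, Myc, the 6 called members with the largest differences per table and the 3 with the smallest F test p; some others are given by their range. The members and lists were chosen with earlier results of these data known. Alternatives covered normalization, filter, test, single libraries, single lines and the replicate number. Gene positions are from the GENCODE annotation of GRCm38, and promoters from RefSeq.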

Additional observations from a re-analysis of the deposited data

Results flagged for a closer look

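In scaled reads, both 66708 libraries lay above, and both 88943 libraries below, all shERWOOD libraries of their own table for 22 members. The same held for 14.4% of the 9144 genes tested in both tables. The difference between the 2 lines was not tested, because the tables were normalized separately. On the deposited scale the differences in 88943 were -1.07 for Ddx21, -0.99 for Dkc1, -0.94 for Nop2, -0.88 for Nolc1, -0.83 for Wdr43, -0.80 for Nhp2, -0.75 for Bysl, -0.74 for Utp20, -0.72 for Tsr1, -0.71 for Ltv1 and -0.71 for Nop16. They were -0.67 for Ncl, -0.64 for Rrp9, -0.60 for Rrp12, -0.59 for Noc3l, -0.56 for Nop10, -0.55 for Utp15, -0.47 for Pes1, -0.44 for Bop1, -0.42 for Fbl, -0.38 for Polr1a and -0.27 for Noc4l. Of these, Ncl and Pes1 were not called in 66708. The 66708 side depended on the scaling. In CPM, both 66708 libraries lay above for 10 members, against 18% of all genes tested in that table. Both 88943 libraries lay below in CPM for 38 members, against 24% of all genes tested in theirs.

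Bop1, a large subunit factor, had a mean of 1018 scaled reads in Mgp2, far from the other 3 Mgp-directed shERWOOD lines, which had 854 to 860.0. The Mgp2 libraries, which differed most from each other of all lines, had 1085 and 951 for Bop1. Dixon's critical value, which this gap exceeds, is passed by chance in about 1 in 20 groups.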

How the results depend on the processing

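The count of members called lower in 88943 stayed between 38 and 40 under all 24 alternatives, and 38 of the 39 kept their call wherever they were tested. Ddx10 lost its call under 3, and Rrp12 was not tested with a minimum of 2 units. The count called higher there was 1 with quantile normalization and 1 with voom scaled to read totals, Polr1c each time. In 66708 the calls depended more on the settings, with 12 of the 25 higher and 1 of the 5 lower members keeping their call wherever they were tested. Lines reduced to their means gave 15 higher and 1 lower, and read totals gave 15 higher and 8 lower. Leaving out 1 library gave 18 to 27 higher and 3 to 5 lower, with 3 lower without 66708 replicate 1. The F test called 4 Slpi-table members with quantile normalization and 0 without a filter, and 6 in the Mgp table without a filter. Rn45s in 88943 ran from -0.221 to 0.00407 when 1 library was left out and was 0.0256 with read totals. Myc in 88943 reversed to 0.0788 with quantile normalization and 0.0298 with read totals, and Nop14 in 66708 reversed to 0.00165 without Slpi1U2 and 0.0232 without Slpi2. The cause of these changes was not tested. With the replicate number as a replicate block, 24 members were called higher and 5 lower in 66708, and 0 higher and 40 lower in 88943. The deviations of same-numbered libraries correlated between -0.526 and 0.55 in the Slpi table and between -0.167 and 0.285 in the Mgp table. With both signs present, these values do not settle whether the numbers pair the libraries. The voom fit scaled to read totals, meant wherever read totals are named, was chosen after seeing the data. With 2 libraries per line, a difference that was not called may still exist.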
